A study of Mus musculus with 12 samples.

Results

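The conjugating and aldehyde-handling enzymes of the mouse kidney were taken as all genes with a single annotated symbol from the families below. The families were glutathione S-transferases other than the microsomal ones (GST), UDP-glycosyltransferases (UGT), sulfotransferases (SULT), aldehyde dehydrogenases (ALDH) and aldo-keto reductases (AKR). Akr1b3 and Akr1b8 were left out. The arrays held 81 such genes among 19936 genes, namely 19 GST, 11 UGT, 16 SULT, 21 ALDH and 14 AKR genes. Of the 81, 67 exceeded the 25th percentile of an array on 3 or more arrays. They were tested together with every other gene that met this filter, 16480 in all. The 67 are not all members, because a gene that is low in every group could not enter the test. A further 13 probe sets were annotated to several symbols that include these families, and they were not analysed here.

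Whole-kidney RNA was measured at 6 months of age on 12 arrays, 1 per mouse, in 4 groups of 3. FVB mice were non-diabetic with both D6 alleles intact. D6 mice were non-diabetic and homozygous for a deletion of D6 (Ackr2, an atypical receptor that takes up inflammatory chemokines). OVE mice had intact D6 and the OVE26 transgene, and OVE-D6 mice had both the transgene and the homozygous D6 deletion. All 4 groups were on the FVB background. The D6 deletion came from C57BL/6 mice, was bred to FVB for at least 10 generations, and was then brought together with the transgene, so DNA next to the deletion can still be of C57BL/6 origin. OVE26 is a transgene that makes calmodulin in pancreatic beta cells from an insulin promoter and causes diabetes early in life. The comparisons ask how diabetes altered these genes in each genotype and whether loss of D6 altered them.

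GSTs join glutathione to reactive electrophiles, UGTs join a sugar, most often glucuronic acid, to steroids, bilirubin and drugs, and SULTs transfer sulfate to phenols, steroids and amines. ALDHs oxidise aldehydes to acids, including retinaldehyde to retinoic acid, and AKRs reduce aldehydes and ketones, including steroid ketones, to alcohols. In the kidney many of these enzymes are made by the proximal tubule, which takes up drugs, toxins and their conjugates from blood and filtrate. Several of these families lie in clusters of near-identical genes, so probe sets of neighbouring members can share signal, and a change in 1 of them is uncertain as a change in that gene alone.

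The labelled tissue was checked against defining kidney genes. Slc34a1, the phosphate transporter of the proximal tubule, lay between 13.51 and 13.87 on the log2 scale, Umod of the thick ascending limb between 12.80 and 13.31, and Nphs1 of podocytes between 7.37 and 8.59. The Ackr2 probe set lay between 6.74 and 7.04 on all 12 arrays and did not mark the knockouts. The position of the probe set relative to the deletion was not used here, so its level is no check of the genotype. Xist was between 12.53 and 12.87, and 3 Y-linked genes were at 5.33 or lower, on every array.

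Among the arrays, 2 stood apart, 1 on adrenal gland genes and 1 on the first principal component. OVE-D6 replicate 3 had a mean of 7.19 over 11 adrenal gland genes, against 5.51 to 5.76 on the other arrays, with Cyp11b1, the last enzyme of corticosterone synthesis, at 9.93 against 5.27 to 5.76. OVE replicate 3 lay at 6.9 on the first principal component of all tested genes (35.9% of the variance), between OVE replicates 1 and 2 at 27.0 and 29.4 and the highest of the other 9 arrays at 5.2. Its mean over 12 macrophage and monocyte genes was 7.85, against 8.92 and 8.83 in the other OVE mice. Calls that were gained or lost without these arrays are given beside the results. Fat tissue genes also varied between arrays of 1 group. Their mean over 7 genes was 6.96 to 8.34 in FVB and 7.10 to 7.54 in D6. In OVE it was 7.47 to 7.84 and in OVE-D6 7.11 to 8.19. The highest mean was on FVB replicate 2. That array also held the highest non-diabetic values of Aldh1a1 (8.87) and Aldh1a7 (6.74). The part of fat tissue in the members' differences was not tested. In whole kidney, fewer cells of a type and less RNA per cell cannot be told apart.

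Diabetes raised 9 and lowered 7 of the 67 tested members when its effect was averaged over both genotypes, that is, over OVE minus FVB and OVE-D6 minus D6. Both aldehyde dehydrogenases of the Aldh1a1 and Aldh1a7 pair rose, 4 glutathione S-transferases rose and none fell, and 4 aldo-keto reductases fell while Akr1c12 rose. UGT and SULT genes changed in both directions. The 16 members were 23.9% of those tested, and 7.65% of all genes tested passed the same limma test at an adjusted p of 0.05. The 9 that rose compare with 4.49% of all genes and the 7 that fell with 3.16%. At an unadjusted p under 0.05 there were 30 members, against 24.0% of all genes. The median difference was 0.08 for the members and -0.01 for all genes. The diabetic and non-diabetic arrays did not overlap in 12 members (17.9%) and in 3.42% of all genes, and 11 of the 12 were among the 16. Without OVE-D6 replicate 3 the number called was 10 of 67 members (14.9%) and 657 of all genes (3.99%). Without that array and OVE replicate 3 together it was 18 of 67 (26.9%) against 8.08% of all genes, and Gstm3, Ugt3a1 and Ugt3a2 were then not called (adjusted p = 0.0662 to 0.0811). Gained in that setting were Aldh1b1, Akr1e1, Sult5a1, Aldh3b1 and Gstm5 (adjusted p = 0.0116 to 0.0469). Without OVE replicate 3 alone the number called was 22 of 67 (32.8%) against 11.6% of all genes. The members gained there were the same and Sult1a1 (adjusted p = 0.00527 to 0.0338).

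**Figure D1:**
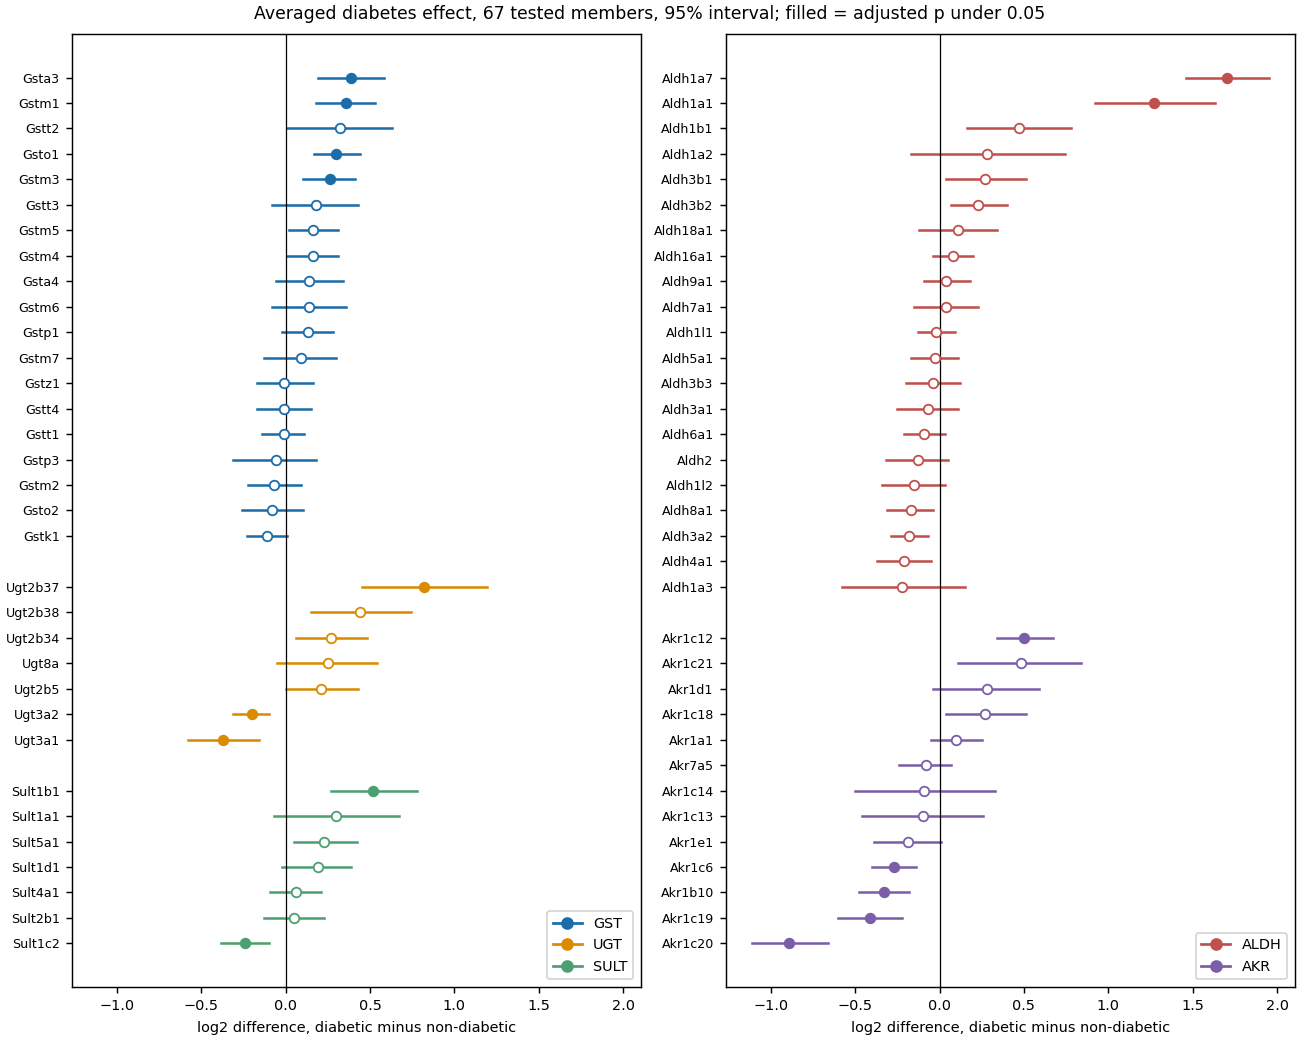
Averaged diabetes effect on the 67 tested members, as the log2 difference of diabetic minus non-diabetic groups with its 95% interval; filled points passed an adjusted p of 0.05. Aldh1a7 at 1.70 and Aldh1a1 at 1.27 lie farthest to the right and Akr1c20 at -0.89 farthest to the left.

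Aldh1a7 and Aldh1a1 had the 2 highest differences of all members. Aldh1a1 oxidises retinaldehyde and other aldehydes, and Aldh1a7 is its neighbouring near-copy in rodents. The RefSeq windows around their start sites (GRCm38.p6, 300 bases each) are shown because the 2 genes moved together and the parts of the windows next to the start sites are nearly alike. The Aldh1a1 window is chr19:20601718-20602017 on the plus strand (1 of 2 windows of this gene), and the Aldh1a7 window is chr19:20727507-20727806 on the minus strand. Capitals mark the longest run that both windows share, 65 bases from position 157 to 221.
Aldh1a1: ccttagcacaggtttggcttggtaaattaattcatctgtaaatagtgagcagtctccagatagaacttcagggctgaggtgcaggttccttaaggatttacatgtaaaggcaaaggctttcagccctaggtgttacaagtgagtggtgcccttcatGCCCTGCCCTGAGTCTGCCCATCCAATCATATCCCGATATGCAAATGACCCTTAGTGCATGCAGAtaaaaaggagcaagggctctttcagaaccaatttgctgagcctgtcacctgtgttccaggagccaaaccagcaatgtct
Aldh1a7: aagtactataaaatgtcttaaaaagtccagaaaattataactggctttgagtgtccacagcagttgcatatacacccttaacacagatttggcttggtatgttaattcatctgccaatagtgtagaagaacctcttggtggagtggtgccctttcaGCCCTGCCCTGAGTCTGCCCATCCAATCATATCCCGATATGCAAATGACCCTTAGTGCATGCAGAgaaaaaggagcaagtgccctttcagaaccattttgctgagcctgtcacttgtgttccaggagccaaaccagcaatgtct
Of the last 150 positions, 142 (94.7%) carried the same base in both, against 35 of the first 150 when compared position by position. That comparison allowed no gaps, so like stretches of the first parts that stand at shifted positions were not counted. The likeness of the windows is a description of the reference sequence and does not show that either window drove the change.

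Aldh1a7 was 6.18, 6.74 and 6.53 in FVB, 6.09, 6.09 and 6.19 in D6, 8.24, 8.33 and 8.34 in OVE, and 7.52, 7.51 and 8.10 in OVE-D6 (log2, replicates 1 to 3). Every diabetic array lay above every non-diabetic one. Its averaged difference was 1.70 ± 0.11 (SE), or 3.26-fold, with limma adjusted p = 1.89e-05. Its highest OVE-D6 value was on the array with adrenal signal, and the difference was 1.61 (adjusted p = 1.62e-05) without that array. The FVB and D6 arrays of Aldh1a7, 6.09 to 6.74, lay above but near 5.93, which is used below as a mark of background. The folds given for Aldh1a7 thus rest on a low non-diabetic signal.

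Aldh1a1 was 8.28, 8.87 and 7.86 in FVB, 8.09, 8.02 and 8.19 in D6, 9.86, 9.91 and 9.23 in OVE, and 9.24, 9.12 and 9.59 in OVE-D6. Here too no diabetic array fell as low as the highest non-diabetic one. The averaged difference was 1.27 ± 0.16, or 2.42-fold (adjusted p = 0.00125), and 1.20 (adjusted p = 0.0044) without OVE-D6 replicate 3. Both calls held without any 1 of the 12 arrays. Since the 2 genes are near-copies, their probe sets can share signal. All counts here still hold them as 2 members.

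The other 19 ALDH genes did not pass, and the class median was -0.02. Among them, Aldh3a2, which oxidises fatty aldehydes, was next at -0.18 ± 0.05 (adjusted p = 0.0528), followed by mitochondrial Aldh1b1 at 0.47 ± 0.14 (0.0688) and by Aldh3b2 at 0.23 ± 0.08 (0.0849). Mitochondrial Aldh2, which clears acetaldehyde, differed by -0.13 (95% interval -0.32 to 0.05), and Aldh7a1 of lysine breakdown by 0.04 (-0.15 to 0.23). Aldh6a1, an enzyme of valine breakdown, and Aldh9a1, which acts in carnitine synthesis, differed by -0.09 and 0.04. Aldh1l1, the folate-linked member, stayed between 11.14 and 11.42 on the 12 arrays.

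**Figure D2:**
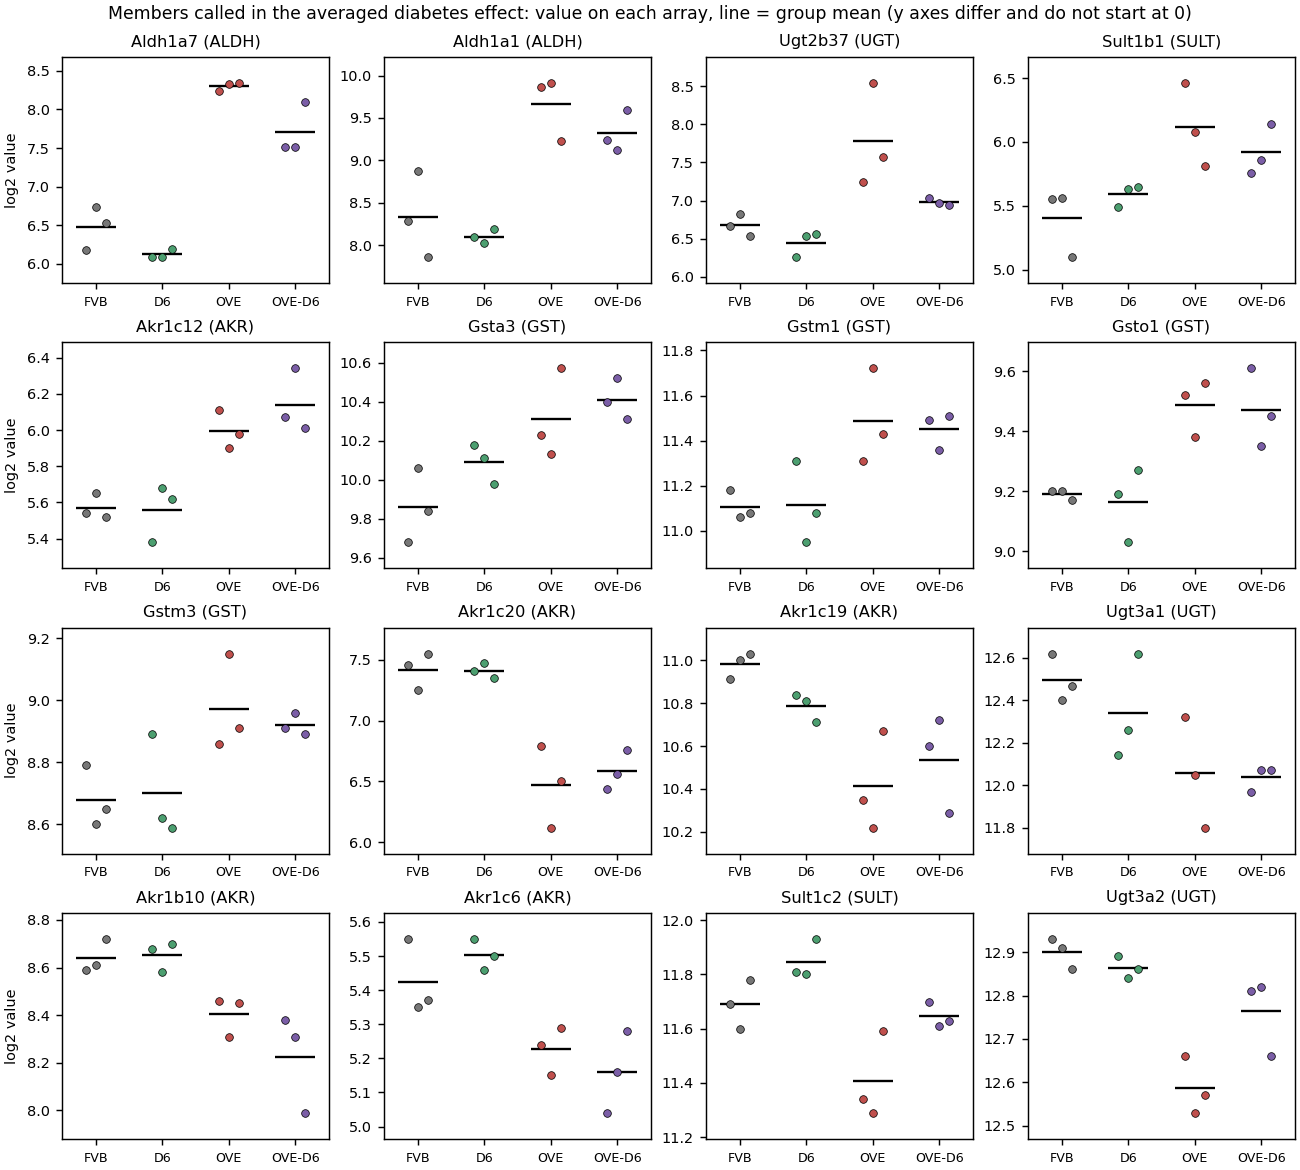
Log2 value of the 16 members called in the averaged diabetes effect on each of the 12 arrays, with the group means as lines; the y axes differ and do not start at 0. Aldh1a7 runs from 6.09 in D6 to 8.34 in OVE, with no overlap between diabetic and non-diabetic arrays.

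Aldo-keto reductases were the class with most falls: 4 of 13 tested genes fell and 1 rose, and the class median was -0.09. Akr1c20 belongs to the Akr1c genes, which reduce steroid and other ketones and stand in 1 cluster with Akr1c14, Akr1c18, Akr1c13, Akr1c19, Akr1c12, Akr1c6, Akr1c21 and Akr1e1. Akr1c20 was 7.46, 7.25 and 7.55 in FVB, 7.41, 7.47 and 7.35 in D6, 6.79, 6.12 and 6.50 in OVE, and 6.44, 6.56 and 6.76 in OVE-D6. All 6 diabetic arrays were below all 6 non-diabetic ones. It fell by 0.89 ± 0.10 on the log2 scale, or 1.85-fold (adjusted p = 0.000661), and this call held without any 1 array.

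Akr1c12 moved the other way within the same cluster. It was 5.54, 5.65 and 5.52 in FVB, 5.38, 5.68 and 5.62 in D6, 6.11, 5.90 and 5.98 in OVE, and 6.07, 6.34 and 6.01 in OVE-D6. No arrays overlapped between diabetic and non-diabetic mice, and the averaged difference was 0.50 ± 0.07 (adjusted p = 0.00285). Its signal was low: the FVB and D6 arrays and OVE replicate 2 were under 5.93, the level that 95% of 1027 olfactory receptor genes did not exceed and that is used here as a mark of background. No fold is given for a gene this near to the mark.

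Akr1c19 was 10.91 to 11.03 in FVB and 10.84, 10.81 and 10.71 in D6, against 10.35, 10.22 and 10.67 in OVE and 10.60, 10.72 and 10.29 in OVE-D6. One OVE-D6 array at 10.72 lay just above the lowest D6 array at 10.71, so the groups overlapped. It differed by -0.41 ± 0.09 (adjusted p = 0.0162). Akr1b10, a relative of aldose reductase, ranged from 8.58 to 8.72 in non-diabetic and from 7.99 to 8.46 in diabetic mice and differed by -0.33 ± 0.07 (adjusted p = 0.0158). Its lowest value, 7.99, was on OVE-D6 replicate 3, and the difference without that array was -0.27 (adjusted p = 0.0266). Akr1c6, a steroid dehydrogenase of the same cluster, differed by -0.27 ± 0.06 (adjusted p = 0.0185), but all 4 of its group means, 5.16 to 5.50, were at background level.

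The remaining AKR genes did not pass. Akr1c21 at 0.48 ± 0.17 (adjusted p = 0.106) and Akr1c18, which inactivates progesterone, at 0.27 ± 0.11 (0.141) were the nearest. Akr1a1, an aldehyde reductase that makes gulonate for ascorbate synthesis in mice, differed by 0.10 (95% interval -0.05 to 0.25). Akr7a5 and Akr1e1 differed by -0.08 and -0.19.

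Glutathione S-transferases rose in 4 of 19 tested genes, with no fall and a class median of 0.14. Gsto1, an omega-class enzyme that reduces dehydroascorbate and arsenic compounds, was 9.20, 9.20 and 9.17 in FVB, 9.19, 9.03 and 9.27 in D6, 9.52, 9.38 and 9.56 in OVE, and 9.61, 9.35 and 9.45 in OVE-D6. The lowest diabetic array, 9.35, was above the highest non-diabetic one, 9.27. The averaged difference was 0.30 ± 0.06 (1.23-fold, adjusted p = 0.0149) and held without any 1 array.

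Gstm1, a mu-class enzyme that conjugates many electrophiles, ranged from 10.95 to 11.31 in non-diabetic and from 11.31 to 11.72 in diabetic mice. The highest non-diabetic and lowest diabetic arrays both read 11.31 to this precision. It differed by 0.36 ± 0.08 (adjusted p = 0.0201), and the call was lost without D6 replicate 2 or OVE-D6 replicate 3 (adjusted p = 0.0506 to 0.0521). Its neighbour Gstm3 differed by 0.26 ± 0.07 (adjusted p = 0.0453), a call that held only without FVB replicate 1, D6 replicate 1, OVE replicate 1 or OVE replicate 3 (0.0808 to 0.106 without each of the others). Gstm3 had 2 probe sets, and only the one with the higher mean was used. Over all alternatives its adjusted p ran from 0.0237 to 0.164. With the mean of all probe sets of each gene, 15 members and 1264 of all genes were called in the averaged effect, against 16 and 1260. The genes Gstm5, Gstm7, Gstm6, Gstm3, Gstm2, Gstm1 and Gstm4 stand in 1 run, and Gstm2 and Gstm4 differed by -0.07 and 0.16 without passing.

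Gsta3, the alpha-class enzyme that also isomerises steroids, was 9.68, 10.06 and 9.84 in FVB, 10.18, 10.11 and 9.98 in D6, 10.23, 10.13 and 10.57 in OVE, and 10.40, 10.52 and 10.31 in OVE-D6. A single OVE array at 10.13 fell below the highest D6 array. The averaged difference was 0.39 ± 0.09 (adjusted p = 0.0223) and missed the threshold without FVB replicate 3 or D6 replicate 3 (0.0523 to 0.0529). Gstp1, Gstk1, Gstt1 and Gstz1, which stand for the pi, kappa, theta and zeta classes, differed by 0.13, -0.11, -0.01 and -0.01, none past the test.

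Gsta3 and other GST genes are textbook targets of NRF2, which binds the antioxidant response element. The motif TGACNNNGC, searched on both strands, was in the windows of Gsta3 and Akr1c19 among the called members, and these are shown with the match in capitals. The Gsta3 window is chr1:21240335-21240634 and the Akr1c19 window chr13:4233490-4233789, both on the plus strand of GRCm38.p6.
Gsta3: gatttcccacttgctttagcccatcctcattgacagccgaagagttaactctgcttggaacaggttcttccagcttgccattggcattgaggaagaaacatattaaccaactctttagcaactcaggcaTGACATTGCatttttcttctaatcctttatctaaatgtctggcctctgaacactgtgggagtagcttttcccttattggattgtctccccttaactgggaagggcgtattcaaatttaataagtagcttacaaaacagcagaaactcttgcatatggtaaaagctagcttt
Akr1c19: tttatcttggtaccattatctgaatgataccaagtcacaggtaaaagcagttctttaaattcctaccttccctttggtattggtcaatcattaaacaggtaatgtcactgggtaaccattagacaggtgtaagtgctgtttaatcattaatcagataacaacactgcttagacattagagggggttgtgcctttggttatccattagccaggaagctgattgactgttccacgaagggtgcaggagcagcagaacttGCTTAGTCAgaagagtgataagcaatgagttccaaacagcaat
RefSeq windows were found for 70 of the 81 members, 83 windows in all. The motif occurred in 7 of these 83 windows (8.43%) and in 12.4% of 32851 windows of 27025 genes. Among windows of members that rose it was in 1 of 12, and among those of members that fell in 1 of 5. The xenobiotic response element core TNGCGTG, bound by the aryl hydrocarbon receptor, was in 4 of 83 member windows (4.82%) against 5.07% of all windows, and in none of the windows of called members. A match is no evidence of binding, and a window without one says only that these letters are not in it. No window was used for Akr1c20 and Ugt3a2, so the 5 windows stand for 5 of the 7 members that fell.

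UDP-glycosyltransferases changed in 3 of 7 tested genes. Ugt2b37, one of the clustered Ugt2b genes that conjugate steroids and drugs with glucuronic acid, was 6.66, 6.83 and 6.53 in FVB, 6.26, 6.53 and 6.56 in D6, 7.25, 8.54 and 7.57 in OVE, and 7.03, 6.97 and 6.94 in OVE-D6. The lowest diabetic array was above the highest non-diabetic one, and OVE replicate 2 stood more than the others above the rest. It rose by 0.82 ± 0.17 (1.77-fold, adjusted p = 0.0144), and by 0.63 (adjusted p = 0.00259) without OVE replicate 2. The related Ugt2b38, Ugt2b34 and Ugt2b5 were also on the higher side, at 0.44 ± 0.14, 0.27 ± 0.10 and 0.21 ± 0.10, without passing (adjusted p = 0.0671, 0.112 and 0.214).

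Ugt3a1 and Ugt3a2 are neighbours that use sugars other than glucuronic acid and had high signals in all groups. Ugt3a2 was 12.93, 12.91 and 12.86 in FVB, 12.89, 12.84 and 12.86 in D6, 12.66, 12.53 and 12.57 in OVE, and 12.81, 12.82 and 12.66 in OVE-D6. All diabetic arrays were below all non-diabetic ones, but by little in OVE-D6. It differed by -0.20 ± 0.05 (adjusted p = 0.0289) and Ugt3a1 by -0.37 ± 0.10 (adjusted p = 0.0386). Both calls depended on single arrays. The call of Ugt3a2 was lost without any FVB or D6 array, OVE replicate 2 or OVE-D6 replicate 3 (0.0538 to 0.0726), and that of Ugt3a1 without any 1 array other than D6 replicate 1, OVE replicate 1 or OVE replicate 3 (0.0558 to 0.0819).

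Sulfotransferases changed in 2 of 7 tested genes, in opposite directions. Sult1b1, which sulfates thyroid hormones and small phenols and lies next to the Ugt2 cluster, was 5.55, 5.56 and 5.10 in FVB, 5.49, 5.63 and 5.65 in D6, 6.46, 6.08 and 5.81 in OVE, and 5.76, 5.86 and 6.14 in OVE-D6. No arrays overlapped. All non-diabetic arrays and 3 of the 6 diabetic ones (5.76 to 5.86) were under the background mark, so no fold is given. It rose by 0.52 ± 0.12 on the log2 scale (adjusted p = 0.0202), and the call was lost without OVE-D6 replicate 3 (0.47, adjusted p = 0.053). Sult1c2 was 11.60 to 11.93 in non-diabetic and 11.29 to 11.70 in diabetic mice, with overlap, and differed by -0.24 ± 0.06 (adjusted p = 0.0378). That call was kept only without FVB replicate 2 or OVE replicate 3 (0.0549 to 0.0939 without each of the others). Sult1a1 and Sult1d1, which sulfate phenols and amines, differed by 0.30 ± 0.17 and 0.19 ± 0.09 without passing.

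Marker lists of kidney cell types were measured on the same arrays. The mean over 20 proximal tubule genes was 12.08 to 12.14 in FVB, 12.10 to 12.12 in D6, 11.86 to 12.07 in OVE and 12.03 to 12.16 in OVE-D6. In the averaged effect 3 of these 20 genes fell and none rose, with a median of -0.04. Over 12 macrophage and monocyte genes the mean was 7.08 to 7.36 in FVB, 7.43 to 7.69 in D6, 7.85 to 8.92 in OVE and 7.32 to 7.55 in OVE-D6, and 5 of the 12 rose in the averaged effect. Over 14 genes of the loop, distal tubule and collecting duct it was 10.62 to 10.68 in FVB and in D6, 10.29 to 10.45 in OVE and 10.52 to 10.64 in OVE-D6, and 5 of the 14 fell. Of 7 fat tissue genes 1 rose in the averaged effect, Fabp4 by 0.55 ± 0.14 (limma adjusted p = 0.0361), and 0 fell. The part of any of these lists in the members' differences was not tested.

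In mice with intact D6, diabetes raised 6 of the 67 tested members and lowered 3 (13.4%), against 7.28% of all genes called in OVE minus FVB (4.90% higher and 2.38% lower). An unadjusted p under 0.05 was reached by 29 members, against 24.1% of all genes, and the OVE and FVB arrays did not overlap in 27 members (40.3%), against 27.1% of all genes. Aldh1a7 was 1.82 ± 0.16 higher (3.53-fold, adjusted p = 0.000393), Aldh1a1 1.33 ± 0.23 higher (2.52-fold, adjusted p = 0.00756), and Akr1c20 was lower, at -0.95 ± 0.15 (1.94-fold, adjusted p = 0.00463). These 3 calls held without any 1 of the 12 arrays. The other 6 called were Ugt2b37 at 1.11 ± 0.24 (2.16-fold, adjusted p = 0.018), Sult1b1 at 0.72 ± 0.16 (0.0233), Gsta3 at 0.45 ± 0.12 (0.0493), Akr1c12 at 0.43 ± 0.10 (0.0305), Akr1c19 at -0.57 ± 0.12 (0.0191) and Ugt3a2 at -0.31 ± 0.07 (0.0212). Each of the 6 was lost without at least 1 array.

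The number called in OVE minus FVB depended on single mice. It was 3 (4.48%) without FVB replicate 3, when 2.59% of all genes were called, and 4 (5.97%) without OVE replicate 2, against 2.18% of all genes. Without OVE replicate 3, the OVE mouse nearest to the non-diabetic arrays, it was 16 (23.9%) against 11.5% of all genes. The counts of members and of all genes thus moved in the same direction. Members gained without OVE replicate 3 were Akr1e1 at -0.51, Gstm5 at 0.38, Aldh3b1 at 0.62, Sult1a1 at 0.84 and Aldh1b1 at 0.70 (adjusted p = 0.00165 to 0.0295). Aldh1a2, Sult5a1 and Sult1c2 were gained as well and are given below. The same members were gained without OVE replicate 3 and OVE-D6 replicate 3 together. When the FVB and OVE arrays were fitted on their own, 4 members and 440 of all genes were called. For Ugt2b37 the call was lost without FVB replicate 3 (adjusted p = 0.0674), and for Sult1b1 without FVB replicate 3, OVE replicate 1 or OVE replicate 2 (0.0707 to 0.0928). That of Akr1c19 was lost without FVB replicate 2 or 3 or OVE replicate 1 or 2 (0.0568 to 0.0806), that of Ugt3a2 without any FVB array or OVE replicate 2 (0.0568 to 0.0824), and that of Akr1c12 without any FVB array or OVE replicate 1 or 2 (0.0587 to 0.101). The call of Gsta3 was kept only without FVB replicate 2 (0.0589 to 0.145 without each of the others).

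Among members that did not pass in OVE minus FVB, Aldh1a2, the retinaldehyde dehydrogenase of the embryo and of mesothelial and stromal cells, was 1.02 ± 0.30 higher (2.03-fold, adjusted p = 0.0558). It was 0.57 without OVE replicate 2 and 1.32 (adjusted p = 0.0119) without OVE replicate 3. Gsto1, Gstm1, Sult5a1, Sult1c2 and Ugt3a1 differed by 0.30, 0.37, 0.40, -0.28 and -0.44 (adjusted p = 0.0618 to 0.0737). Of these, Gstm1 passed without OVE replicate 1, Ugt3a1 without D6 replicate 3 or OVE replicate 1, and Sult5a1 and Sult1c2 without OVE replicate 3 (adjusted p = 0.00283 to 0.0493). The difference of Sult5a1 was 0.26 without OVE replicate 2. In this comparison 11 of the 12 macrophage and monocyte genes rose, with a median of 1.35, and 2 of the 20 proximal tubule genes fell (Slc7a13 by 0.75 and Lrp2 by 0.35). Of the loop, distal tubule and collecting duct genes 5 of 14 fell, among them Pvalb by 0.84 and Slc26a4 by 0.75, as did 1 of 4 podocyte and 1 of 5 liver genes. Their part in the members' differences was not tested.

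In D6 knockouts, diabetes raised Aldh1a7 and Akr1c12 and lowered Akr1c20, 3 of 67 members (4.48%) against 0.285% of all genes called in OVE-D6 minus D6 (0.182% higher and 0.103% lower). At an unadjusted p under 0.05 there were 21 members, against 9.98% of all genes, and arrays did not overlap in 23 members (34.3%), against 16.4% of all genes. Aldh1a7 was 1.59 ± 0.16 higher (3.01-fold, adjusted p = 0.00147), and this call held without any 1 array. Akr1c20 was lower, at -0.82 ± 0.15 (1.77-fold, adjusted p = 0.038), and Akr1c12 higher, at 0.58 ± 0.10 (adjusted p = 0.0421). These calls were lost without any 1 array of the compared groups, D6 or OVE-D6, and without FVB replicates 1 or 3 (Akr1c20) or any FVB array (Akr1c12), with adjusted p = 0.0572 to 0.157 and 0.0591 to 0.139. The number of members called was then 1 (1.49%) without FVB replicate 1 or without any 1 D6 or OVE-D6 array. Of all genes, 0.279% were called without FVB replicate 1 and 0.103% to 0.152% without any 1 D6 or OVE-D6 array. Without OVE-D6 replicate 3, Akr1c20 was at -0.91 and Akr1c12 at 0.65 (adjusted p = 0.0764 and 0.0802), and without OVE replicate 3 as well both kept these values (adjusted p = 0.0839). Aldh1a1 at 1.22 (adjusted p = 0.0574) and Akr1b10 at -0.43 (0.114) did not pass, and Aldh1a1 passed without FVB replicate 2, FVB replicate 3 or OVE replicate 3 (0.0241 to 0.0358).

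The diabetes effects in the 2 genotypes were measured on separate arrays. They had the same sign in 48 of 67 members (71.6%) and in 62.9% of all genes. Across the 67 members Pearson's r was 0.69 and Spearman's rho 0.61, and across all 16480 genes they were 0.38 and 0.35. These are descriptions across genes, which share the 12 arrays and are not independent replicates. Called in both genotypes were 3 members, namely Aldh1a7, Akr1c20 and Akr1c12. The share of all genes called in both was not counted and cannot exceed the 0.285% called in OVE-D6 minus D6. There the calls of Akr1c20 and Akr1c12 were lost without any 1 D6 or OVE-D6 array.

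**Figure D3:**
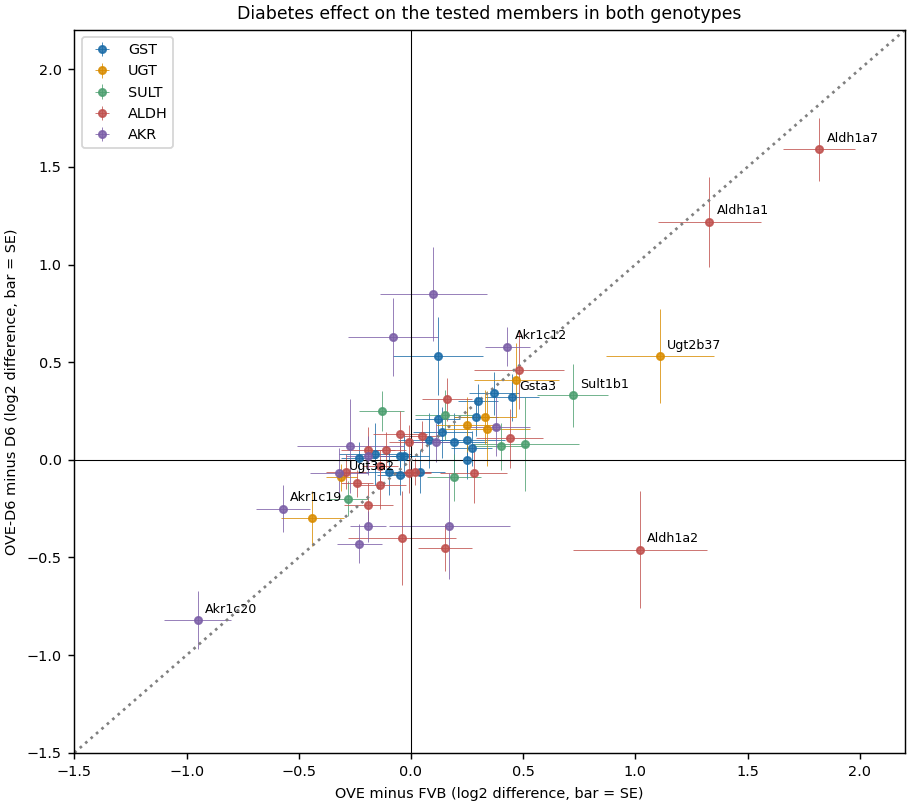
Diabetes effect on each tested member with intact D6 (x axis, OVE minus FVB) and without D6 (y axis, OVE-D6 minus D6), as log2 differences with standard errors; the dotted line marks equal effects. Aldh1a7 (1.82 and 1.59) and Aldh1a1 (1.33 and 1.22) lie near the line, and Aldh1a2 (1.02 and -0.46) lies far from it.

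Loss of D6 changed no member past the threshold in diabetic mice. In OVE-D6 minus OVE, 0 of 67 members passed the limma test, against 0.231% of all genes (0.0485% higher and 0.182% lower). An unadjusted p under 0.05 was found for 13 members, 6 higher and 7 lower, against 14.8% of all genes. All member differences lay between -1.11 and 0.62, with a median of 0.04 against 0.01 for all genes. The arrays of OVE-D6 and OVE did not overlap in 16 members (23.9%) and in 17.6% of all genes.

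Aldh1a2 had the smallest p of these. It was 8.16, 7.63 and 7.63 in FVB, 8.35, 8.21 and 7.95 in D6, 8.51, 9.73 and 8.24 in OVE, and 7.56, 7.79 and 7.80 in OVE-D6. OVE replicate 2 was by far the highest array, and all OVE arrays were above all OVE-D6 arrays. The difference of OVE-D6 minus OVE was -1.11 ± 0.30 (95% interval -1.76 to -0.47, adjusted p = 0.139). It was -0.66 (adjusted p = 0.29) without OVE replicate 2 and -1.41 (adjusted p = 0.0168) without OVE replicate 3.

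The next were Aldh1a7 at -0.59 ± 0.16 (adjusted p = 0.144), Ugt2b37 at -0.81 ± 0.24 (0.162), Akr1d1, the steroid reductase of bile acid synthesis, at 0.62 ± 0.20 (0.196), and Aldh5a1, which oxidises succinate semialdehyde, at 0.27 ± 0.09 (0.21). For Aldh1a7 the OVE-D6 arrays, 7.51 to 8.10, were all below the OVE arrays, 8.24 to 8.34. Ugt2b37 was likewise lower on every OVE-D6 array, and its difference was -0.43 without OVE replicate 2. Akr1d1 had its highest value, 8.68, on OVE-D6 replicate 3, and its difference was 0.37 without that array and OVE replicate 3. Without OVE replicate 3, 4 members (5.97%) passed, namely Akr1e1 at 0.44, Aldh1a2 at -1.41, Aldh5a1 at 0.37 and Sult1c2 at 0.33, while 4.05% of all genes passed. Without both arrays the 4 that passed were Aldh1a7 at -0.77 (adjusted p = 0.0178), Akr1e1 at 0.44, Aldh1a2 at -1.45 and Aldh5a1 at 0.39, against 3.86% of all genes. Both shares of members were near those of all genes. In the same comparison 3 of 12 macrophage and monocyte genes fell (Cd14, Mrc1 and Lyz2), with a median of -1.19 over the 12, and no proximal tubule gene of 20 passed. Their part in the members' differences was not tested.

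**Figure D4:**
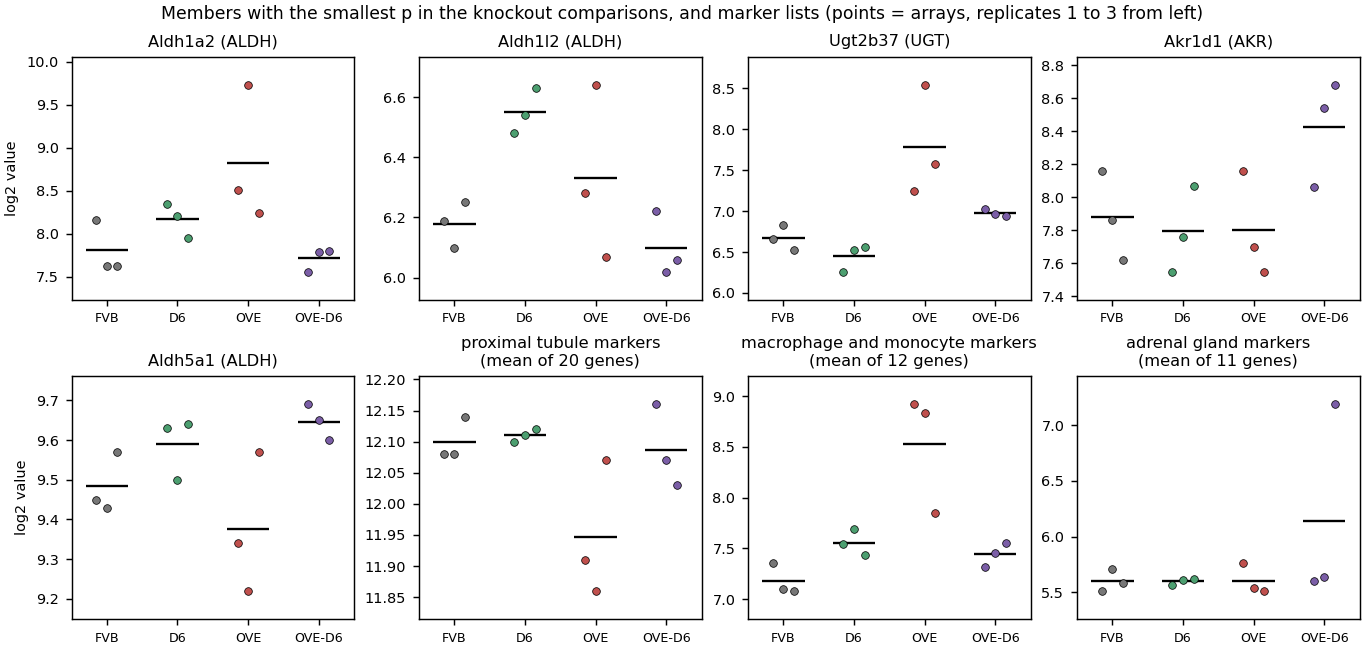
Log2 values on each array of 5 members with small p in the knockout comparisons, and the mean of 20 proximal tubule, 12 macrophage and monocyte and 11 adrenal gland genes; lines are group means and the y axes differ. The macrophage mean is highest in OVE replicates 1 and 2 (8.92 and 8.83), and the adrenal mean is 7.19 on OVE-D6 replicate 3.

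In non-diabetic mice, D6 minus FVB, 0 of 67 members passed the limma test, against 0.0121% of all genes. Of the 67, 3 members had an unadjusted p under 0.05 (3.82% of all genes). The arrays of D6 and FVB did not overlap in 8 members (11.9%), against 9.79% of all genes. The differences ran from -0.65 to 0.38 with a median of 0. Aldh1l2, the mitochondrial folate-linked dehydrogenase, was 6.19, 6.10 and 6.25 in FVB and 6.48, 6.54 and 6.63 in D6, without overlap, and differed by 0.37 ± 0.12 (adjusted p = 1). Akr1c21 differed by -0.65 ± 0.24, Akr1c13 by -0.47, Aldh1a7 by -0.36 and Sult4a1 by -0.19, each with adjusted p = 1. Leaving out FVB replicate 1 gave -0.15 for Akr1c13 and leaving out D6 replicate 1 gave -0.30, and the value of Aldh1a7 was -0.23 without FVB replicate 2.

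The interaction, which subtracts the diabetes effect measured with intact D6 from the one measured without it, was past the threshold for 0 of 67 members and for 0% of all genes in limma. With unadjusted p under 0.05 there were 7 members, 5 above 0 and 2 below, against 9.99% of all genes. Aldh1a2 had an interaction of -1.48 ± 0.42 and Aldh1l2 one of -0.60 ± 0.17 (both adjusted p = 0.287). Sult4a1, Akr1d1 and Akr1c21 followed at 0.38, 0.71 and 0.75 (adjusted p = 0.392, 0.433 and 0.489). Without OVE replicate 3, Aldh1l2 (-0.73, adjusted p = 0.025) and Aldh1a2 (-1.77, adjusted p = 0.0318) passed, 2.99% of members against 2.29% of all genes. Without OVE replicate 3 and OVE-D6 replicate 3 together, only Akr1c19 passed among the members (0.57, adjusted p = 0.0398), 1.49% against 2.48% of all genes, and the interaction of Akr1d1 was 0.46. These shares lie near the background. For Aldh1a7 the interaction was -0.23 (95% interval -0.72 to 0.26), an interval that holds differences of either sign.

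Genes that supply, remove or partner these enzymes were taken from 9 lists with 99 tested genes. In the averaged diabetes effect 12 rose (12.1%) and 2 fell (2.02%), against 4.49% and 3.16% of all genes. In OVE minus FVB 6 rose (6.06%) and 1 fell (1.01%), near the 4.90% and 2.38% of all genes. In OVE-D6 minus D6 only Sulf2, an extracellular sulfatase, passed (0.52 ± 0.09, adjusted p = 0.0316). None of the 99 passed in OVE-D6 minus OVE, D6 minus FVB or the interaction. Calls of single list genes were not followed through the settings that left out arrays. Without OVE-D6 replicate 3 the count of all genes called in the averaged effect was 657, against 1260.

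Of 13 tested NRF2 target genes outside the members, Nqo1, a quinone reductase, rose by 0.69 ± 0.11 (adjusted p = 0.00418) and Ephx1, the microsomal epoxide hydrolase, by 0.83 ± 0.14 (0.00633) in the averaged effect. The other 11 did not pass, and the list's median was 0.21. Among 10 microsomal and related glutathione enzymes 3 rose. These were Hpgds, a prostaglandin D synthase of the GST fold (0.76 ± 0.12, adjusted p = 0.00418), Mgst1, a membrane-bound GST (0.52 ± 0.10, adjusted p = 0.00935), and Ptges, a prostaglandin E synthase (0.30 ± 0.06, adjusted p = 0.0134). Hpgds differed by 1.19 ± 0.17 in OVE minus FVB and by 0.33 ± 0.17 in OVE-D6 minus D6.

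In the averaged effect 2 of the 12 tested genes of glutathione supply rose. Oplah, which recycles oxoproline to glutamate, rose by 0.39 ± 0.08 (adjusted p = 0.013), and Anpep, a peptidase that trims glutathione breakdown products, by 0.24 ± 0.06 (0.0372). Of 12 tested genes that supply glucuronic acid and sulfate donors, Ugdh, which makes UDP-glucuronic acid, rose by 0.42 ± 0.09 (adjusted p = 0.0163). Sulf2, among 6 genes that remove glucuronate or sulfate, rose by 0.77 ± 0.06 (adjusted p = 6.13e-05). In the 9 tested conjugate exporters the drug pump Abcb1a fell by 0.47 ± 0.09 (adjusted p = 0.0134) and the others did not pass.

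Among the 14 tested alcohol and carbonyl partner enzymes Adh7, an alcohol dehydrogenase that also oxidises retinol, rose by 0.67 ± 0.11 in the averaged effect (adjusted p = 0.00461). Stra6, the cell-surface retinol importer, was the 1 of 11 tested retinoid-handling genes that passed in that effect (0.49 ± 0.13, adjusted p = 0.0368). Of 12 regulators of drug-handling genes, Hnf4a, a transcription factor of the proximal tubule, fell by 0.20 ± 0.05 (adjusted p = 0.0319) and Bach1, a repressor at antioxidant response elements, rose by 0.23 ± 0.06 (adjusted p = 0.0378).

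The members with little signal were mostly sulfotransferases and UGTs. All 4 group means were at or under the background mark of 5.93 in 20 of the 81 members, namely 10 of 16 SULT, 4 of 11 UGT, 3 of 19 GST, 2 of 14 AKR and 1 of 21 ALDH genes. Of these 20, 6 were tested and 14 were not. The untested genes included Sult2a3 and Sult2a6, members of a steroid-sulfating group, Sult1e1, which sulfates estrogens, and Ugt2b1, Ugt2b35 and Ugt2b36. Their signal cannot be told from background. Akr1cl, also untested, was 5.75 on OVE-D6 replicate 3 and 4.26 to 4.88 on the other 11 arrays. That array is the one with adrenal signal, and the part of that signal in the value was not tested.

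Between mice of 1 group, the tested members varied by a pooled median SD of 0.16, with 0.10 in FVB, 0.15 in D6, 0.18 in OVE and 0.12 in OVE-D6. The widest ranges over the 12 arrays were those of Ugt2b37 (2.28), Aldh1a7 (2.25), Aldh1a2 (2.17) and Aldh1a1 (2.05). OVE replicate 2 held the highest of the 12 values for 15 members and the lowest for 15.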

How the data were processed

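The authors' deposited table held log2 probe-set values from Affymetrix mouse gene arrays, 1 array per mouse. Per the labels' protocols, kidney RNA (integrity number above 8.8, average 9.1) was labelled from 100 ng with whole-transcript kits. Summarisation and normalisation were not given in the sources used here. Array medians lay between 6.84 and 6.93 (log2), and no scaling was added. The p-values measure the spread between the 3 mice within a group, pooled for each gene over all 4 groups and moderated across genes. In the main fit a comparison thus also draws on the spread of groups outside it. The number of arrays limits the precision.

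Of 35556 probe sets, 21789 had 1 symbol, 1621 several, and 12146 stayed unnamed here. Symbols were updated through RefSeq names of GRCm38.p6 (21698 by Entrez identifier, 3 by accession, 88 kept). The probe set with the highest mean stood for each of 1001 genes with several, 2 of them members. Genes above the array's 25th percentile on at least 3 arrays were tested with limma 3.58.1 in R 4.3.3: lmFit on all 12 arrays, 6 contrasts, eBayes and Benjamini-Hochberg adjustment over the 16480 genes at 0.05. "Rose" and "fell" mean past that threshold. Errors are standard errors of the log2 difference. The fit was tested on simulated data.

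The members, lists and rules were chosen with earlier results of these data known. Named were all members past the threshold, the 3 smallest p per class in OVE minus FVB, the 5 smallest p where fewer than 5 passed, and up to 3 genes past the threshold per other list. Further members are described as not passing, by role, after their values were seen. Alternatives changed the filter, normalisation, probe set, variance model, array weights, arrays in the fit, threshold and replicate block, and left out each array. Leaving out OVE replicate 3 and OVE-D6 replicate 3 together was chosen after seeing the data. Python 3.11.15, pandas 2.3.3 and matplotlib 3.10.9 were used for tables and figures.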

Additional observations from a re-analysis of the deposited data

How the results depend on the processing

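The number of members called in OVE minus FVB was 9, with 4 when only the compared groups were fitted, 20 at an adjusted p of 0.10, 3 to 16 when each array was left out, and 16 without OVE replicate 3 and OVE-D6 replicate 3 together. In OVE-D6 minus OVE it was 0, with 0 to 4 when each array was left out and 4 without both arrays. In OVE-D6 minus D6 it was 3, with 1 to 4 when each array was left out and 1 without both arrays. For the interaction it was 0, with 0 to 2 and 1 likewise, and for D6 minus FVB it was 0 under every alternative run. The averaged effect called 16, with 10 to 22 when each array was left out and 18 without both. Of all genes, 440 were called in OVE minus FVB when the compared groups were fitted alone, and 359 to 1901 when each array was left out, against 1200. In OVE-D6 minus OVE the count of all genes was 0 with only the compared groups and 1 to 668 when each array was left out, against 38. At an adjusted p of 0.10, 2206 of all genes were called in OVE minus FVB. When each array was left out, all genes called were 17 to 74 in OVE-D6 minus D6, against 47. They were 0 to 377 in the interaction, against 0, and 657 to 1916 in the averaged effect, against 1260. Without both arrays the counts of all genes were 1799 in OVE minus FVB and 636 in OVE-D6 minus OVE. In OVE-D6 minus D6, the interaction and the averaged effect they were then 26, 409 and 1331. In D6 minus FVB 1 to 4 of all genes were called under the alternatives. The fit with the replicate number as a block called 8 members in OVE minus FVB, 1 in OVE-D6 minus D6 and 14 in the averaged effect. Of all genes that fit called 971, 29 and 1030, against 1200, 47 and 1260 in the main fit. Same-numbered arrays did not pair: over 18 pairs the correlation of deviations ran from -0.25 to 0.12, and 2 pairs were over 0.1. The 51 named member differences gave 1140 values under the alternatives: 990 kept direction and side of the threshold, 112 lost the call, 38 gained it and 0 reversed. Aldh1a7 stayed past the threshold in all 3 diabetes comparisons under every alternative run, and Akr1c20 and Aldh1a1 in OVE minus FVB and the averaged effect. The causes of these changes were not tested. No array depth exists here; 20 members at background limit what can be said of SULT and UGT genes.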
